A study of Homo sapiens with 4 samples.

Results

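The 45S ribosomal RNA genes of chromosome 21 were examined in CUT&Tag interval lists from 22RV1, a human prostate cancer cell line. CUT&Tag is an antibody-directed assay of where a protein or mark sits on chromatin. Members were the deposited intervals whose summit lies in a window of 260 kb of chromosome 21 (hg38) that begins at position 8200000 and holds RNA45SN2, RNA45SN3 and RNA45SN1, in that order. The window was selected on the high summit levels it showed in these same lists, so the levels of its members are a description. They numbered 60 of 26756 intervals in 4 lists. The inhibitor control held 37 of 10061, PD0332991 8 of 3304, the siRNA control 9 of 10759 and RB siRNA 6 of 2632.

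The study had 4 groups with 1 library each, and all were 22RV1 cells grown in RPMI-1640 with serum. They were cells treated with PD0332991 (palbociclib, an inhibitor of the kinases CDK4 and CDK6), the control of that treatment, cells given an siRNA against RB, and the control of that siRNA. The title of the series asks about phosphorylated RB, the transcription factor ETS1 and the response to CDK4/6 inhibitors. The sources used here give no dose, time or antibody target. The lists hold no measure of RB, so the knockdown was not checked. The extraction protocol describes formaldehyde-fixed, sonicated chromatin with an input. With 1 library per group no difference has a replicate check, no p-value was computed between groups, and every interval given covers counting error only.

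A 45S gene is transcribed by RNA polymerase I in the nucleolus as 1 long precursor. The precursor carries the 18S RNA of the small ribosomal subunit and the 5.8S and 28S RNAs of the large one, separated by internal spacers and flanked by external spacers that are removed during maturation. Human cells carry these genes as tandem repeats on the short arms of the acrocentric chromosomes, in many more copies than a reference assembly holds. UBTF and the selectivity factor recruit the polymerase to the promoter. RB is known to restrain polymerase I transcription, and CDK activity to favour it.

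RNA45SN2 spans chromosome 21 positions 8205988 to 8219302, RNA45SN3 8389035 to 8402343, and RNA45SN1 8433222 to 8446572. The 3 genes make up 15.4% of the window. A partial repeat lies between the first pair, with an 18S pseudogene (RNA18SP5), a 5.8S pseudogene (RNA5-8SP10) and a 28S pseudogene (LOC110467529). The microRNA genes MIR6724-1 to MIR6724-4 lie at the front of the 4 repeats and begin 673 bases before RNA45SN2 and RNA45SN3 and 692 bases before RNA45SN1. Copies share reads, because the sequence of a read that fits several of them does not tell which one it came from. The members of 1 library are therefore not independent of each other, and the same position in several copies is no repeated observation.

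The following hairpins are shown as landmarks and as an example of sequence that copies share, with the mature microRNA in capitals (RefSeq, GRCh38.p14, plus strand). MIR6724-2 lies in the partial repeat at chr21:8249505-8249596 and MIR6724-4 before RNA45SN1 at chr21:8432530-8432621. Their 92 bases are identical. MIR10396B lies in the 5′ external spacer of RNA45SN1 at chr21:8436324-8436374, 501 bases before the 18S gene, and carries a mature RNA from each arm.
MIR6724-2: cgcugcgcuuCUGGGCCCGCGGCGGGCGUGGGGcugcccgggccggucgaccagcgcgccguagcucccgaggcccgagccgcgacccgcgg
MIR6724-4: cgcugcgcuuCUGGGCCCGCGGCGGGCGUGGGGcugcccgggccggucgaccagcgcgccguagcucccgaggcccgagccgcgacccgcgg
MIR10396B: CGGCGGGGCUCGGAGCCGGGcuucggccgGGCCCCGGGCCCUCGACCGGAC
No library listed a summit inside these hairpins. The nearest to MIR6724-4 lay 1557 bp beyond its end, in the 5′ external spacer of RNA45SN1, in the inhibitor control, under PD0332991 and in the siRNA control. In the RB siRNA list the nearest lay 7480 bp away.

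In all 4 libraries the highest summit of each 45S gene lay at the 3′ end of the 5.8S gene or just beyond it, in the second internal spacer. Levels are given as FPM, the number of treatment fragments over the summit base scaled to 1000000 fragments of the library. In RNA45SN2 the level there was 531 FPM in the inhibitor control, 865 under PD0332991, 659 in the control of the siRNA and 1091 after RB siRNA. RNA45SN3 had 534, 877, 647 and 1109 FPM in the same order of libraries. RNA45SN1 had 428, 698, 545 and 933 FPM. Both treated libraries were above their controls in every copy. RB siRNA was the highest library in every copy and the inhibitor control the lowest.

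Only 2 positions served as the highest summit, and they recurred to the base. Counted from the first base of the 5.8S gene, which is 157 bases long, the summit of the inhibitor control lay 132 bases downstream in all 3 copies, inside the gene. In both lists of the siRNA pair it lay 279 bases downstream in all 3 copies, inside the second internal spacer and 1038 to 1045 bases before the 28S gene. Under PD0332991 it lay 132 bases downstream in RNA45SN3 and 279 bases downstream in RNA45SN2 and RNA45SN1. The positions are 147 bp apart, less than the fragment lengths recovered from the lists (174 to 204 bp). They were treated as 1 place under the 250 bp matching distance.

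**Figure D1:**
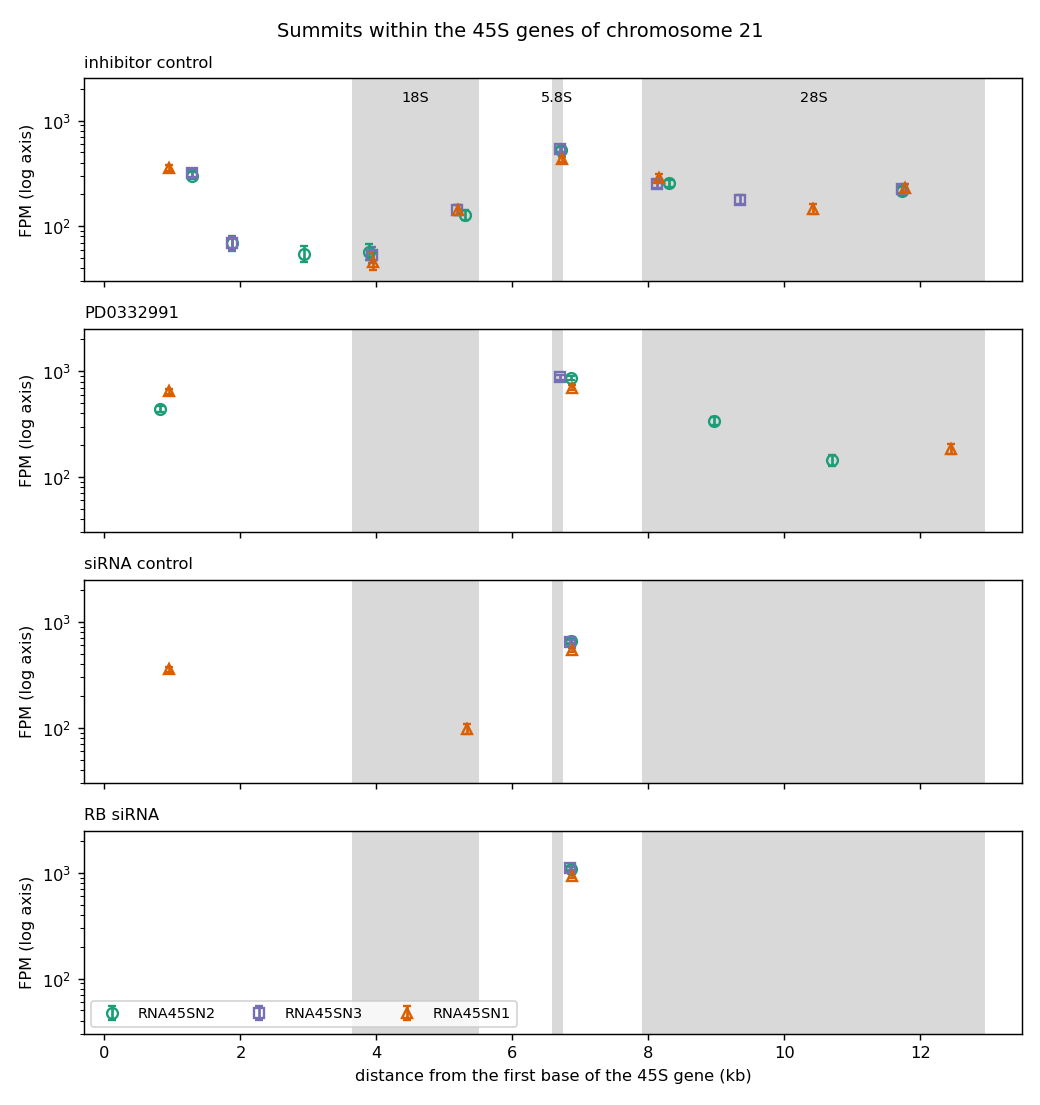
Level of each listed summit (FPM, log axis) against its distance from the first base of its 45S gene (kb), with 1 panel per library, 1 marker per copy, and bars for exact Poisson 95% intervals. Grey bands mark the 18S, 5.8S and 28S genes as placed in RNA45SN2. The highest summit of each copy sits in the 5.8S gene or just beyond it in every panel, and the RB siRNA panel holds no other summit.

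RNA45SN1 was lower than the other copies at this place in all 4 libraries. Its fragments were 0.81 and 0.80 of those of RNA45SN2 and RNA45SN3 in the inhibitor control, 0.81 and 0.80 under PD0332991, 0.83 and 0.84 in the siRNA control, and 0.86 and 0.84 after RB siRNA. The log2 ratio of RNA45SN1 over RNA45SN2 ranged from -0.31 (95% interval -0.43 to -0.19, inhibitor control) to -0.23 (-0.31 to -0.14, RB siRNA), and none of the 8 intervals against the other copies included 0. RNA45SN3 and RNA45SN2 differed by less than counting error in each library, with log2 ratios of 0.01, 0.02, -0.03 and 0.02. How the aligner divided reads among copies was not tested.

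**Figure D2:**
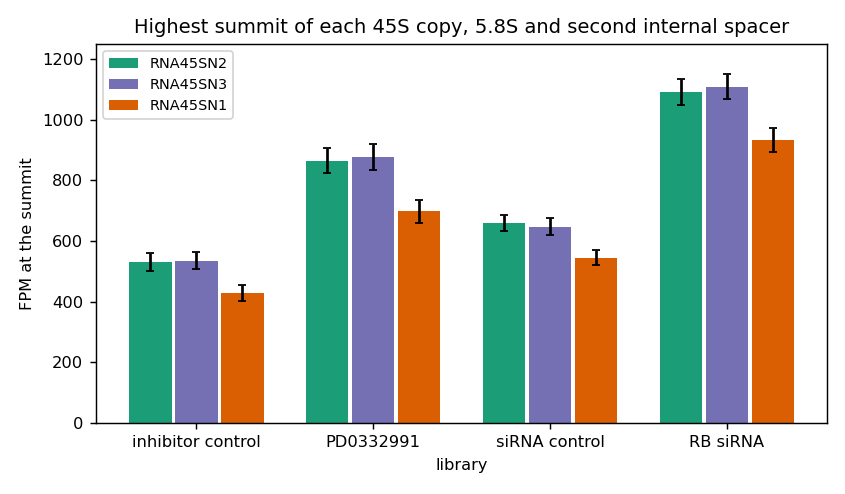
Level (FPM) of the highest summit of each 45S copy, at the 5.8S gene or in the second internal spacer, by library. Bars show the recovered level and whiskers the exact Poisson 95% interval; RNA45SN1 is the lowest copy in each library, from 428 FPM in the inhibitor control to 933 after RB siRNA.

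The ranks of these summits follow from how the window was chosen. Ranked by FPM over all contigs, RNA45SN2, RNA45SN3 and RNA45SN1 stood at 7, 6 and 12 in the inhibitor control and at 4, 3 and 10 under PD0332991. They stood at 2, 3 and 6 in the siRNA control and at 4, 3 and 6 after RB siRNA. The authors' fold at the summits of the 3 copies was 15.5, 16.6 and 13.7 in the inhibitor control, and 8.67, 9.40 and 7.42 under PD0332991. It was 24.8, 23.6 and 18.8 in the siRNA control, and 9.33, 9.47 and 8.12 after RB siRNA. By fold, then, the treated libraries stood below their controls, the opposite of the order by FPM.

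The fold does not share a scale between lists. As recovered from the deposited values, the treatment had been scaled down to the size of its background sample and a pseudocount of 1 added. The background held 34562 read ends in the inhibitor control, 9592 under PD0332991, 36250 in the control of the siRNA and 7641 after RB siRNA, against 2458774, 1909343, 3479671 and 2423284 treatment fragments. At the genome-wide background, 1 fragment thus added 0.0141, 0.00502, 0.0104 and 0.00315 to the fold. The FPM values are ratios to the treatment total and do not carry this scaling.

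**Figure D3:**
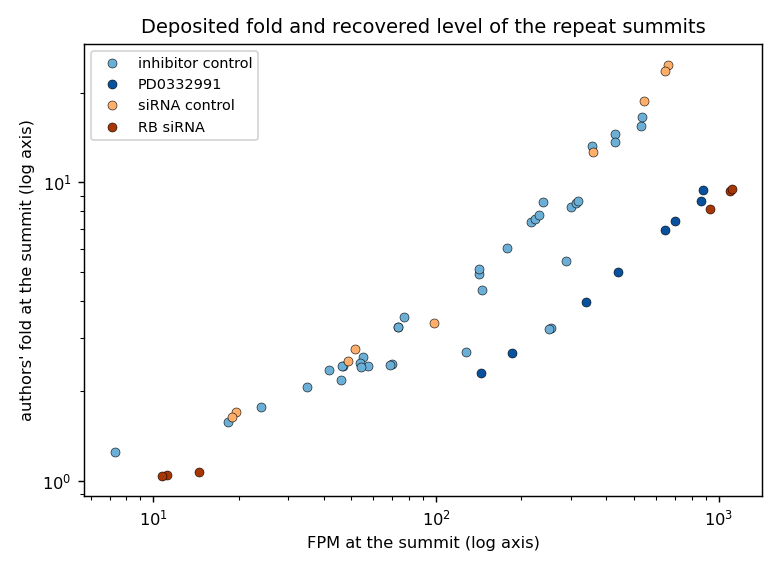
The authors' fold (log axis) against the recovered level (FPM, log axis) for the 60 members, coloured by library. At a like level PD0332991 has a lower fold than the siRNA control, 6.94 at 646 FPM against 23.6 at 647 FPM. RB siRNA has a lower fold at a higher level, 8.12 at 933 FPM against the 24.8 at 659 FPM of that control.

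The 5′ external spacer, the leader between the promoter and the 18S gene, held the next highest summits in the inhibitor control and under PD0332991. In RNA45SN1 this summit lay 956 bases from the start of the 45S gene, at position 8434178, in 3 libraries to the base. Its level was 355 FPM in the inhibitor control, 646 under PD0332991 and 358 in the siRNA control. The controls thus lay within counting error of each other and PD0332991 above both. After RB siRNA 1 interval of 32644 bp spanned the whole of RNA45SN1 and listed only its summit at the 5.8S end.

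The other copies had their leader summit elsewhere. In the inhibitor control it lay 1285 bases into RNA45SN2 (301 FPM) and 1284 bases into RNA45SN3 (316 FPM). Under PD0332991 it lay 810 bases into RNA45SN2 (438 FPM). Lower leader summits of the inhibitor control lay 1871 and 1870 bases into these copies (69.5 and 68.7 FPM) and 2929 bases into RNA45SN2 (54.9 FPM). The −log10 q that the authors deposited for a summit was 0 for each of these lower ones.

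Over the 18S gene, which encodes the RNA of the small subunit, the inhibitor control had 6 summits of 46.4 to 142 FPM, a pair in each copy. The siRNA control had 1, at 98.3 FPM and 1681 bases into the gene in RNA45SN1. The higher of each pair lay near the 3′ end of the gene, 1552 bases in for RNA45SN3 and RNA45SN1 and 1659 for RNA45SN2. The treated lists had none over 18S.

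Over the 28S gene, which encodes the main RNA of the large subunit, the inhibitor control had 8 summits of 145 to 288 FPM and PD0332991 had 3 of 144 to 338 FPM. A summit 3831 to 3843 bases into 28S recurred in all 3 copies of the inhibitor control, with 217, 223 and 231 FPM. Another lay 235 bases into 28S in RNA45SN3 and RNA45SN1, with 251 and 288 FPM. Under PD0332991 the 28S summits lay 1068 bases into the gene in RNA45SN2 (338 FPM), 2797 bases into it (144 FPM), and 4526 bases in for RNA45SN1 (185 FPM). Neither list of the siRNA pair held a 28S summit. The −log10 q was 6.41 at the recurrent 28S summit of each copy. At the summit 235 bases in, it was 0 in RNA45SN3 and 2.47 in RNA45SN1. A summit of the inhibitor control 404 bases into 28S of RNA45SN2 had 0. Under PD0332991 the 28S summits had at most 1.18.

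No library listed a summit in the first internal spacer or in the 3′ external spacer. Of the summits within the 45S genes, 6 of 23 in the inhibitor control had a counterpart within 50 bp of the same place in both other copies, 10 in 1 other copy and 7 in none. Under PD0332991, 2 of 8 had a counterpart in 1 other copy. Both other copies had one for 3 of 5 siRNA control summits and for 3 of 3 RB siRNA summits.

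By count, 23 of 37 members lay within a 45S gene in the inhibitor control (62.2%, exact binomial 95% interval 44.8 to 77.5). The counts were 8 of 8 under PD0332991 (63.1 to 100), 5 of 9 in the siRNA control (55.6%, 21.2 to 86.3) and 3 of 6 after RB siRNA (50%, 11.8 to 88.2). Members share reads, so these intervals understate the error. The partial repeat held 4 members in the inhibitor control. They were 311 and 41.9 FPM before the 18S pseudogene, 430 in the 5.8S pseudogene, again 132 bases from its start, and 239 in the 28S pseudogene. In the other lists the interval that carried the 5.8S-end summit of RNA45SN3 also spanned the partial repeat. It was 182038 bp wide under PD0332991, 162249 bp in the siRNA control and 169483 bp after RB siRNA.

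Outside the repeats, levels were lower, and no member there had a −log10 q above 0.915. The 10 summits there in the inhibitor control ran from 7.32 to 77.3 FPM with a median of 46.4, the 4 of the siRNA control from 19.0 to 51.4, and the 3 after RB siRNA from 10.7 to 14.4. PD0332991 had none. Positions 8224163 and 8236448, in the spacer after RNA45SN2, were listed in both controls to the base, with 73.2 and 48.9 FPM at the former and 24.0 and 19.5 at the latter. After RB siRNA, a pair of summits lay in CDC27P10, a pseudogene of the cell cycle gene CDC27, with 11.1 and 10.7 FPM. The background there reached 47.9% and 49.7% of the scaled treatment level, from few background read ends. At the edges of the window, the members nearest to its boundaries in the inhibitor control had 301 and 73.2 FPM. The nearest summits excluded had 39.5 FPM, 91.9 kb before it, and 26.0 FPM, 3.41 kb after it. Before the window, the nearest excluded summit had 210 FPM under PD0332991 (541 kb away), 33.0 in the siRNA control (91.8 kb) and 371 after RB siRNA (1830 kb). After the window, it had 13.1, 9.77 and 14.4 FPM in the same order.

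The number of members does not measure binding. A list gives 1 summit per interval, and intervals can be very long, with median widths of 184, 542, 175 and 701 kb over the whole lists. Those in the window had a median width of 1.31 kb in the inhibitor control, 21.2 kb under PD0332991, 13.8 kb in the siRNA control and 17.1 kb after RB siRNA. They covered 73.6%, 83.1%, 92.0% and 100% of the 45S genes. Of the 37 members of the inhibitor control, 4 had a partner under PD0332991 within 250 bp, 29 lay inside an interval with a summit at least as high, and 4 lay between intervals. The last 4 were the summit near the 3′ end of 18S in RNA45SN2 and the recurrent 28S summit in all 3 copies. Of the 9 members of the siRNA control, 3 had a partner after RB siRNA, 5 lay inside an interval with a summit at least as high and 1, at position 8236448, lay between intervals.

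The background sample was also higher in the window than in the genome. Its level at the summit was above the genome-wide value for 35 of 37 members in the inhibitor control, 7 of 8 under PD0332991, 7 of 9 in the siRNA control and 3 of 6 after RB siRNA. Over all intervals of these lists it was above it for 8.97%, 3.75%, 7.92% and 2.55%. The background samples held only 7641 to 36250 read ends, so a raised level can rest on a few of them. At the summits of the 5.8S end the background was between 0.00681% and 1.35% of the scaled treatment level. The 0.00681%, in RNA45SN3 after RB siRNA, rests on the genome-wide value and not on a local count. At the 28S summits near the start of the gene in RNA45SN2 and RNA45SN3 of the inhibitor control it was 22.8% and 23.1%. The part of repeat copy number in these levels was not tested.

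The comparison of PD0332991 with its control asked how CDK4/6 inhibition changes occupancy. Of the 37 members of the inhibitor control, 4 could be matched, and all 4 were higher under PD0332991. Those at the 5.8S end come from copies that share reads. The 4 control members that lay between intervals of PD0332991, at 128 to 231 FPM, have no ratio. The log2 ratio was 0.71 (95% interval 0.60 to 0.81) at the 5.8S end of RNA45SN2, 0.71 (0.61 to 0.82) in RNA45SN3 and 0.71 (0.59 to 0.82) in RNA45SN1. In the 5′ external spacer of RNA45SN1 it was 0.86 (0.74 to 0.99). Summed over the copies, the level was 2440 FPM against 1493, a ratio of 1.63. The median log2 ratio of the 887 matched summits of at least 5 FPM was 0.20. All 4 members lay above it beyond counting error, as did 9.13% of all matched summits, while 7.78% lay below (16.9% in either direction). Among the 67 other matched summits of at least 100 FPM, 25.4% lay above and 19.4% below. Many of these are lower than the members and have a larger counting error, so the shares are not like for like, here and in the comparisons that follow. Of all matched summits, 84.2% to 90.9% had a lower ratio than these members.

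The comparison of RB siRNA with its control asked how lowering RB changes occupancy. It gave 3 matched members, the 5.8S end of each copy. Their log2 ratios were 0.73 (0.65 to 0.81) in RNA45SN2, 0.78 (0.70 to 0.86) in RNA45SN3 and 0.78 (0.69 to 0.86) in RNA45SN1. Summed over the copies, the level was 3133 FPM against 1851, a ratio of 1.69. The median log2 ratio of 749 matched summits was 0.45, and all 3 members lay above it beyond counting error, as did 7.61% of matched summits, while 5.74% lay below (13.4% in either direction). The 37 other matched summits of at least 100 FPM had a median of 0.66, and 51.4% of them lay above the shift. The members thus stood close to other high summits of this pair.

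Between the controls the 5.8S end differed in the opposite direction to the median of matched summits. The inhibitor control was lower than the siRNA control at the 5.8S end, with log2 ratios of -0.31 (-0.41 to -0.21) in RNA45SN2, -0.28 (-0.37 to -0.18) in RNA45SN3 and -0.35 (-0.46 to -0.24) in RNA45SN1. In the 5′ external spacer of RNA45SN1 the ratio was -0.01 (-0.14 to 0.12). The median of the 1191 matched summits was 0.59, and that of the 48 others of at least 100 FPM was 1.02. These 4 members lay below the shift beyond counting error, as did 8.4% of matched summits and 6.25% of the 48. A further 11.9% of matched summits and no member lay above it (20.3% in either direction). The other 4 matched members, over 18S in RNA45SN1 and outside the repeats, lay within counting error of the shift, with ratios of 0.53, 0.58, 0.30 and 0.51.

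**Figure D4:**
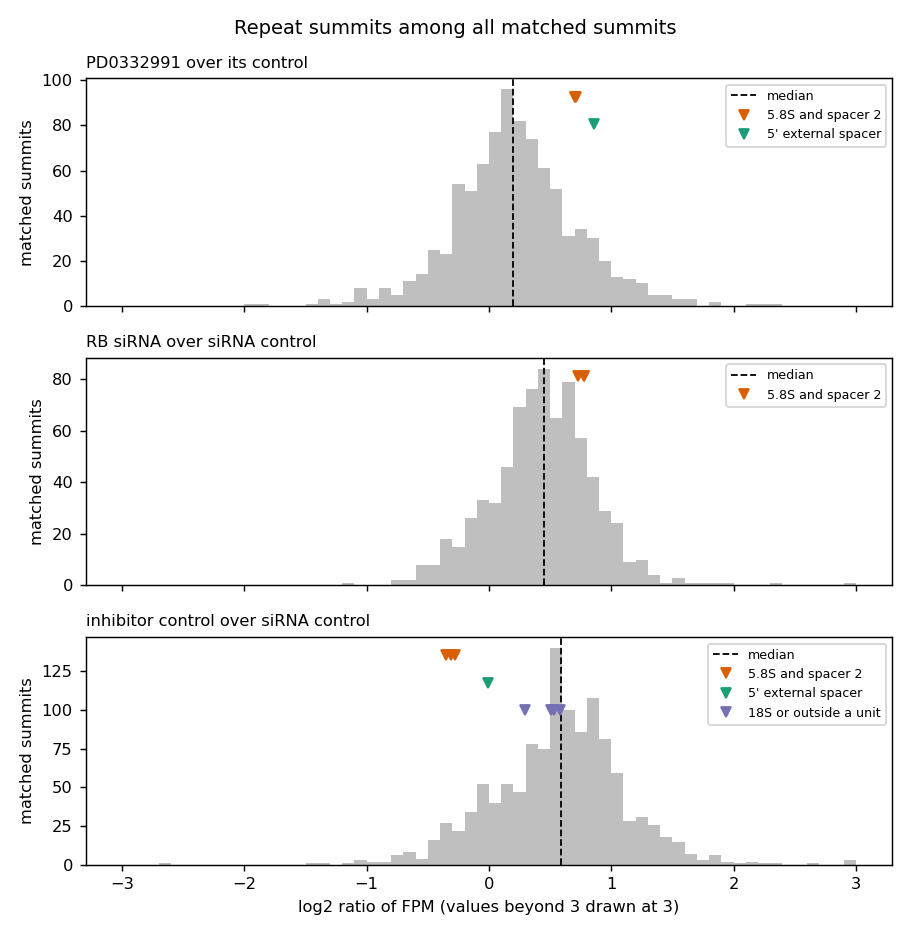
Number of matched summits by log2 ratio of FPM for the 3 comparisons, with the median dashed and the members as triangles. Triangles of the 5.8S end lie right of the median in the upper panels (0.71, and 0.73 to 0.78) and left of it in the lowest (-0.35 to -0.28).

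Relative to the median shift, the summed 5.8S end differed by 0.51 for PD0332991, 0.31 for RB siRNA and -0.90 between the controls. On this centred scale, the distance between libraries that neither treatment sets apart was thus larger than either treated difference. Without the shift subtracted, the summed log2 ratios were 0.71, 0.76 and -0.31, and that distance was the smallest. The treatment and the library cannot be told apart in this design. The comparisons share control libraries, and no test between them was made.

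Of the 45S genes on unplaced or random contigs, RNA45SN5 had its highest summit at the places seen in the window, and RNA45SN4 did not in any library. The annotation table does not name these contigs; RNA45SN4 was taken to lie on the random contig KI270733 of chromosome 22 and RNA45SN5 on the unplaced contig GL000220. In RNA45SN5 the 5.8S-end summit lay 132 bases from the start of 5.8S in the inhibitor control (416 FPM) and 279 bases from it under PD0332991 (718 FPM), after RB siRNA (945 FPM) and in the siRNA control (549 FPM). These levels are near those of RNA45SN1 in each library. In RNA45SN4 a 5.8S-end summit was listed in the inhibitor control alone, with 213 FPM at 131 bases, below all other copies. Its highest summit there was in the leader and lay 957 bases into the 45S gene with 372 FPM, within counting error of the 355 FPM of RNA45SN1. The leader summit was also the highest of RNA45SN4 under PD0332991 (725 FPM at 934 bases) and the one listed in the siRNA control (389 FPM at 932 bases). After RB siRNA the one summit listed in RNA45SN4 lay in 28S, with 617 FPM.

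The 5S RNA, the other ribosomal RNA, is made by RNA polymerase III from 17 annotated genes on chromosome 1 between positions 228610266 and 228646158. No summit lay within 1000 bp of any of them in the inhibitor control, under PD0332991 or in the siRNA control. After RB siRNA there were 2, with up to 16.9 FPM. The interval over the cluster had its summit elsewhere, at 54.5 FPM, in the inhibitor control and at 122 FPM under PD0332991, and lists no lower one. In the siRNA control no interval lay over the cluster.

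Genes that encode the machinery of the pathway had far lower summits than the repeats, whose window was chosen for its high levels. Of 20037 protein-coding genes, 16.8% had a summit within 1000 bp of either end in the inhibitor control, 7.73% under PD0332991, 17.3% among siRNA control intervals and 6.63% after RB siRNA. Of 28 genes for RNA polymerase I and its factors, 5, 3, 8 and 3 had one, or 17.9%, 10.7%, 28.6% and 10.7%. Of 35 genes for the processing and modification of ribosomal RNA, 12, 2, 11 and 4 had one, or 34.3%, 5.71%, 31.4% and 11.4%. The median levels of those genes ran from 3.45 to 14.9 FPM over both lists and all libraries.

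POLR1D, a subunit shared by RNA polymerases I and III, had a summit in all 4 libraries, with 9.35, 13.6, 6.04 and 10.3 FPM in the order inhibitor control, PD0332991, siRNA control and RB siRNA. TOP1, the topoisomerase that relieves supercoils ahead of polymerases, had 5.69, 8.38, 3.45 and 5.78. MPHOSPH10, of the small subunit processome, had 4.88, 6.28, 5.17 and 6.60. NPM1, which encodes the nucleolar protein nucleophosmin, had 21.6, 23.6 and 14.4 FPM in the inhibitor control, under PD0332991 and after RB siRNA. SIRT7, a nucleolar deacetylase gene, had 35.1 under PD0332991 and 19.5 in the siRNA control. FBL, the methyltransferase of box C/D particles, had 13.4 and 8.62 in the controls.

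Few of these could be matched between libraries, and none lay beyond counting error of the shift. In the PD0332991 comparison TOP1, NPM1 and MPHOSPH10 had log2 ratios of 0.56, 0.13 and 0.36. After RB siRNA POLR1D had 0.77 (-0.12 to 1.68). At these levels a difference of the size seen at the repeats was within counting error.

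The lists say little of cell identity. A summit near an end was listed for 1, 1, 2 and 1 of 13 prostate and luminal marker genes, in the same order of libraries. These are 7.69%, 7.69%, 15.4% and 7.69%, beside 16.8%, 7.73%, 17.3% and 6.63% of all protein-coding genes. FOXA1, a pioneer factor of the prostate, was listed in 3 with at most 6.19 FPM. KLK3 and HOXB13 had none in any. Of 6 blood and endothelial markers none had a summit, and so short a list cannot be told apart from those shares.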

How the data were processed

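CUT&Tag libraries of 22RV1 cells were measured, 1 per group. The authors' deposited lists were made with bcl2fastq 2.17, Trimmomatic 0.33, Bowtie2 (given as 2) and MACS2 2.1.0 on hg38, per the submitters' processing notes, which give no settings. How reads that fit several repeats were placed is not given in the sources used here. The deposited score is a rounded-down multiple of −log10 p. The deposited fold is a ratio of scaled treatment to background at the summit. The −log10 p-value and q-value that the authors deposited also describe that summit. Each list holds 1 library, not a pool.

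The whole number of treatment fragments and the background were recovered from fold and −log10 p (pseudocount 1, Poisson upper tail, large window assumed 10000 bp, genome size assumed 2.7 Gb). The numbers were whole within 0.05 for 100% of summits. Where several background levels fitted (670, 97, 490 and 69 summits in the order inhibitor control, PD0332991, siRNA control and RB siRNA), the closest was taken. On lists simulated with known counts, 100%, 99.97%, 100% and 100% were recovered. The simulation used the same model and background levels as the recovery, so it cannot check the assumed settings.

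Summits on chromosomes 1 to 22, X and Y were matched when mutually nearest within 250 bp. The median shift used pairs averaging at least 5 FPM (geometric). Ratios carry exact conditional 95% intervals, and a call means that this interval excluded the median shift. In simulated pairs 74% of summits changed 2-fold were called for PD0332991, 69.5% for RB siRNA and 65% between the controls, against 5.39%, 2.73% and 3.13% of unchanged ones. Totals scale with the assumed window and genome size; the genome size cancels in ratios of libraries. One fragment corresponds to 0.407, 0.524, 0.287 and 0.413 FPM. Summits are 1-based, and gene positions and microRNA sequences came from RefSeq (GRCh38.p14); of the ribosomal RNA genes none had a promoter sequence to print. Members, lists and tests were chosen with earlier results of these data known. Named were the 45S genes and their parts, up to 12 members per library by fold, annotated genes of the window and ribosomal RNA genes elsewhere that hold a summit, and up to 12 pathway genes by number of libraries, then mean level. Other members and genes were named after their values were seen. Alternatives covered q, fold, window, matching distance, scaling and gene-end distance. Python 3.11.15, numpy 2.4.6 and scipy 1.17.1 were used.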

Additional observations from a re-analysis of the deposited data

How the results depend on the processing

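No paired analysis was possible because each group has 1 library. Of 136 alternative values, 112 kept direction and call. For a matched summit, another minimum FPM or a matching distance that kept the pair left the log2 ratio fixed, and only the call could change. Many of the 112 thus kept their direction by construction. The member counts (inhibitor control, PD0332991, siRNA control, RB siRNA) fell from 37, 8, 9 and 6 to 14, 5, 4 and 3 when a −log10 q of 2 was required. Within the 45S genes alone the inhibitor control had 23, the siRNA control 5 and RB siRNA 3. A fold of at least 2 left RB siRNA with 3. The log2 ratio of the highest member, 0.71 for PD0332991 and 0.75 for RB siRNA by FPM, reversed to -0.82 and -1.39 by the deposited fold, whose scaling differs between lists. Between the controls it moved from -0.30 to -0.58. Relative to the median of 498 summits shared by all 4 libraries the ratios were 0.52, 0.30 and -0.86. Matching within 100 bp left 2 members called for PD0332991 and 1 between the controls, since summits 147 bp apart no longer paired, and matching within 1000 bp gave 7 for PD0332991. Centred on the median ratio, the 4 members near the shift between the controls reversed, to -0.00589 (position 8224163), -0.29 (8236448), -0.0591 (8438557) and -0.0803 (8451339), since the median subtracted was 0.59. With a minimum of 20 FPM the one at 8438557, at 0.53, passed the call. Pathway counts moved to 5 polymerase I genes after RB siRNA at 2500 bp and to 1 processing gene under PD0332991 at 500 bp. The cause of other moves was not tested. One fragment is worth 0.287 to 0.524 FPM, so depth limits comparisons of the pathway genes more than those of the repeats.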

Other observations

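Fragments of ribosomal DNA elsewhere in the genome carried far lower summits than the repeats, whose window was chosen for its high levels. Of 23 annotated pseudogenes of 18S, 5.8S or 28S outside the window, 4 had a summit within 1000 bp in the inhibitor control, 5 under PD0332991, 7 among siRNA control summits and 5 after RB siRNA. In that order, 16.8%, 7.73%, 17.3% and 6.63% of protein-coding genes had one within 1000 bp of an end. The latter share counts gene ends only and is not matched for gene type. The 28S pseudogene LOC110467531 on chromosome 19 was listed in all 4, with 6.91, 8.38, 6.90 and 9.49 FPM. LOC110467526 on chromosome 20 was too, with 4.88, 12.6, 8.62 and 9.90 FPM. The highest values lay beside 5.8S pseudogenes, at LOC110467522 on chromosome 20 (24.1 FPM under PD0332991, 29 bp away) and at RNA5-8SP2 on chromosome 16 (19.5 FPM in the siRNA control, 457 bp away). Inside 5.8S pseudogenes, RNA5-8SP had 3.45 FPM in the siRNA control and RNA5-8SP6 had 8.38 under PD0332991, 6.61 in the siRNA control and 5.36 with RB siRNA.

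The microRNA gene MIR3648-2, a member of a family whose other gene, MIR3648-1, lies in the 5′ external spacer of RNA45SN2, sits at chromosome 21 positions 8986999 to 8987178, outside any annotated 45S gene. The siRNA control listed a summit inside it, at 62.9 FPM. Summits 119 and 120 bp beyond it were listed in the inhibitor control (40.7 FPM) and after RB siRNA (64.8 FPM). PD0332991 had none within 1000 bp.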
